A study of Rattus norvegicus with 24 samples.

Results

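The genes described here are 10 that encode enzymes of branched-chain amino acid catabolism: Bckdk, Bckdha, Bckdhb, Dbt, Dld, Bcat2, Ivd, Mccc1, Hibch and Pcca. They were chosen by name from a table of 21767 gene symbols, with the kinase gene Bckdk in the lead because its level falls with a miR-455 mimic. That fall was a measured value of these same libraries, so every contrast of miR-455 against its absence is given as a description, without a test. All 10 were in the table, and all 10 were among the 14303 genes that passed the filter on low counts and were tested.

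The cells were neonatal rat ventricular myocytes, the contractile cells of the newborn heart's lower chambers, isolated from Sprague-Dawley rats and grown in culture. Polyadenylated RNA was sequenced in 24 libraries, 3 in each of 8 groups. On the day after plating the cells were transfected, with Lipofectamine RNAiMax and at 5 nM each, with a mimic of miR-222-3p, a mimic of miR-455-3p, both mimics or a negative control mimic. After 48 h they were given doxorubicin or control treatment for 24 h. Doxorubicin is an anthracycline used against cancer that injures the heart; its dose is 4 uM in the sample protocol, while the series text gives the same figure in mM. The 8 groups were therefore miR-222 with doxorubicin, miR-455 with doxorubicin, both mimics with doxorubicin and control mimic with doxorubicin, and the same 4 mimic conditions without doxorubicin. Cells given both mimics thus were offered more mimic in all unless the single-mimic wells were topped up, which the labels do not state. The labels give neither the animals nor the culture days behind the replicates, so every p-value measures only the spread between these samples, which may be technical.

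Leucine, isoleucine and valine are essential amino acids that the heart can burn as fuel. Mitochondrial BCAT2 first removes their amino group reversibly, and the branched-chain keto acid dehydrogenase (BCKDH) complex, built from E1 (BCKDHA and BCKDHB), E2 (DBT) and E3 (DLD), then commits the keto acids to oxidation. The kinase BCKDK phosphorylates the E1 alpha subunit and switches the complex off, and the phosphatase PPM1K switches it on. The downstream enzymes yield ketone bodies, acetyl-CoA and, through propionyl-CoA, succinyl-CoA. Of these, acetyl-CoA and succinyl-CoA enter the citric acid cycle directly.

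The mature microRNAs that the mimics stand for are shown because the whole comparison turns on them. Sequences are from RefSeq on the GRCr8 build, where miR-455 lies on chromosome 5 and miR-222 on chromosome X, both on the plus strand. Capitals mark the seed, bases 2 to 8 from the 5′ end, the stretch with which a microRNA mainly pairs with a messenger RNA.
rno-miR-455-3p: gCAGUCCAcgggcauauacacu
rno-miR-222-3p: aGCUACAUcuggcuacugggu
The seeds differ. The miR-222 seed is shared with rno-miR-221-3p among the RefSeq rat entries, and the miR-455 seed with no other mature entry. Transcript sequences of the 10 genes were not used here, so no pairing site is reported.

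Promoter windows of 300 bases, 250 before and 50 after the annotated start, were matched by symbol for 9 of the 10 genes, all but Bckdha. The pair below is shown because Bckdk was the gene with the smallest spread within groups and Bcat2 among those with the largest. Capitals mark GC boxes, the letters GGGCGG searched on both strands. The Bckdk window is chr1:191945559-191945858 and the Bcat2 window chr1:105178889-105179188, both on the plus strand of GRCr8.
Bckdk promoter: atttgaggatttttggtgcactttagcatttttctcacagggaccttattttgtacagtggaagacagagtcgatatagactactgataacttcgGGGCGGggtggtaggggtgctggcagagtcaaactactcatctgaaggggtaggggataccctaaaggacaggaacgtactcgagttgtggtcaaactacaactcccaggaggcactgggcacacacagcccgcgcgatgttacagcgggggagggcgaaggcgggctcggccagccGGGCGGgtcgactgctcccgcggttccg
Bcat2 promoter: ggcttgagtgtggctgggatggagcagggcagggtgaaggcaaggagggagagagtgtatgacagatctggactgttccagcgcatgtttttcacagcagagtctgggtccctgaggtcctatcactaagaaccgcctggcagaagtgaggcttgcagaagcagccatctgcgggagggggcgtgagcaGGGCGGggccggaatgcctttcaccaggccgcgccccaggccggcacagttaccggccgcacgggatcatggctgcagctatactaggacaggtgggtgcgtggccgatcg
A GC box was present in 8 of the 9 windows (not in Dld), against 33.1% of all 33469 promoter windows and 61.0% of the 11815 windows of genes tested here. The CCAAT box, searched as CCAAT on both strands, was in 6 of 9, against 36.9% of windows of tested genes. The letters AAGGTCA (2.98%) and CACGTG (8.76%) were in none of the 9. These are letter matches, not sites shown to bind a factor.

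Between 17311949 and 25750309 counts were summed per library, with 10 or more counts in 11469 to 13524 genes. The lowest count of any of the 10 genes in any library was 219, for Bckdha. Mitochondrially encoded transcripts took 5.54% to 38.2% of the counts of a library and varied within groups. The 4 libraries with the fewest genes were, with doxorubicin, both mimics replicate 2 and control mimic replicate 1, and, without it, both mimics replicate 3 and control mimic replicate 1. Some replicates lay very close together: without doxorubicin the chi-square per degree of freedom of the counts was 5.79 to 7.80 between miR-222 replicates 1 and 2, miR-455 replicates 1 and 3, and replicates 1 and 2 of both mimics. It was 7.81 to 9.79 within miR-455 with doxorubicin and reached 575 elsewhere. Of 10 cardiomyocyte markers 9 were in the table, with a summed level of 17200 to 29700 CPM in all but 1 doxorubicin library (53000 CPM) and 29400 to 55700 CPM without doxorubicin. Fibroblast markers summed to 13000 to 44800 CPM, smooth muscle and pericyte markers to 914 to 4270 CPM, while endothelial markers stayed at or below 85 CPM and leukocyte markers at or below 15.8 CPM. In such bulk samples fewer cells of a type and less RNA per cell cannot be told apart. For single genes, CPM here is the usual depth-normalised count, after trimmed-mean (TMM) scaling of the library sizes. Sums over several genes, here and below, are CPM without that scaling, so gaps in them need not hold after it. Levels of different genes are not compared because no transcript lengths were used.

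Bckdk, the kinase that restrains the pathway, separated most of the 8 groups. Its level was 237, 238 and 241 CPM with the control mimic and doxorubicin, and 221, 226 and 226 CPM with miR-222 and doxorubicin. Both mimics with doxorubicin gave 136, 143 and 141 CPM, and miR-222 alone gave 100, 100 and 96.7 CPM. These 4 groups stood in this order without overlap. Next came both mimics alone (75.5, 78.4 and 73.9 CPM) and the control mimic alone (72.8, 67.7 and 77.1 CPM), the only neighbouring groups whose libraries overlapped. The lowest levels were 66.8, 64.8 and 62.3 CPM with miR-455 and doxorubicin and 37.0, 47.3 and 40.2 CPM with miR-455 alone. The lowest library (miR-455 alone, replicate 1) and the highest (control mimic with doxorubicin, replicate 3) differed 6.51-fold.

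**Figure D1:**
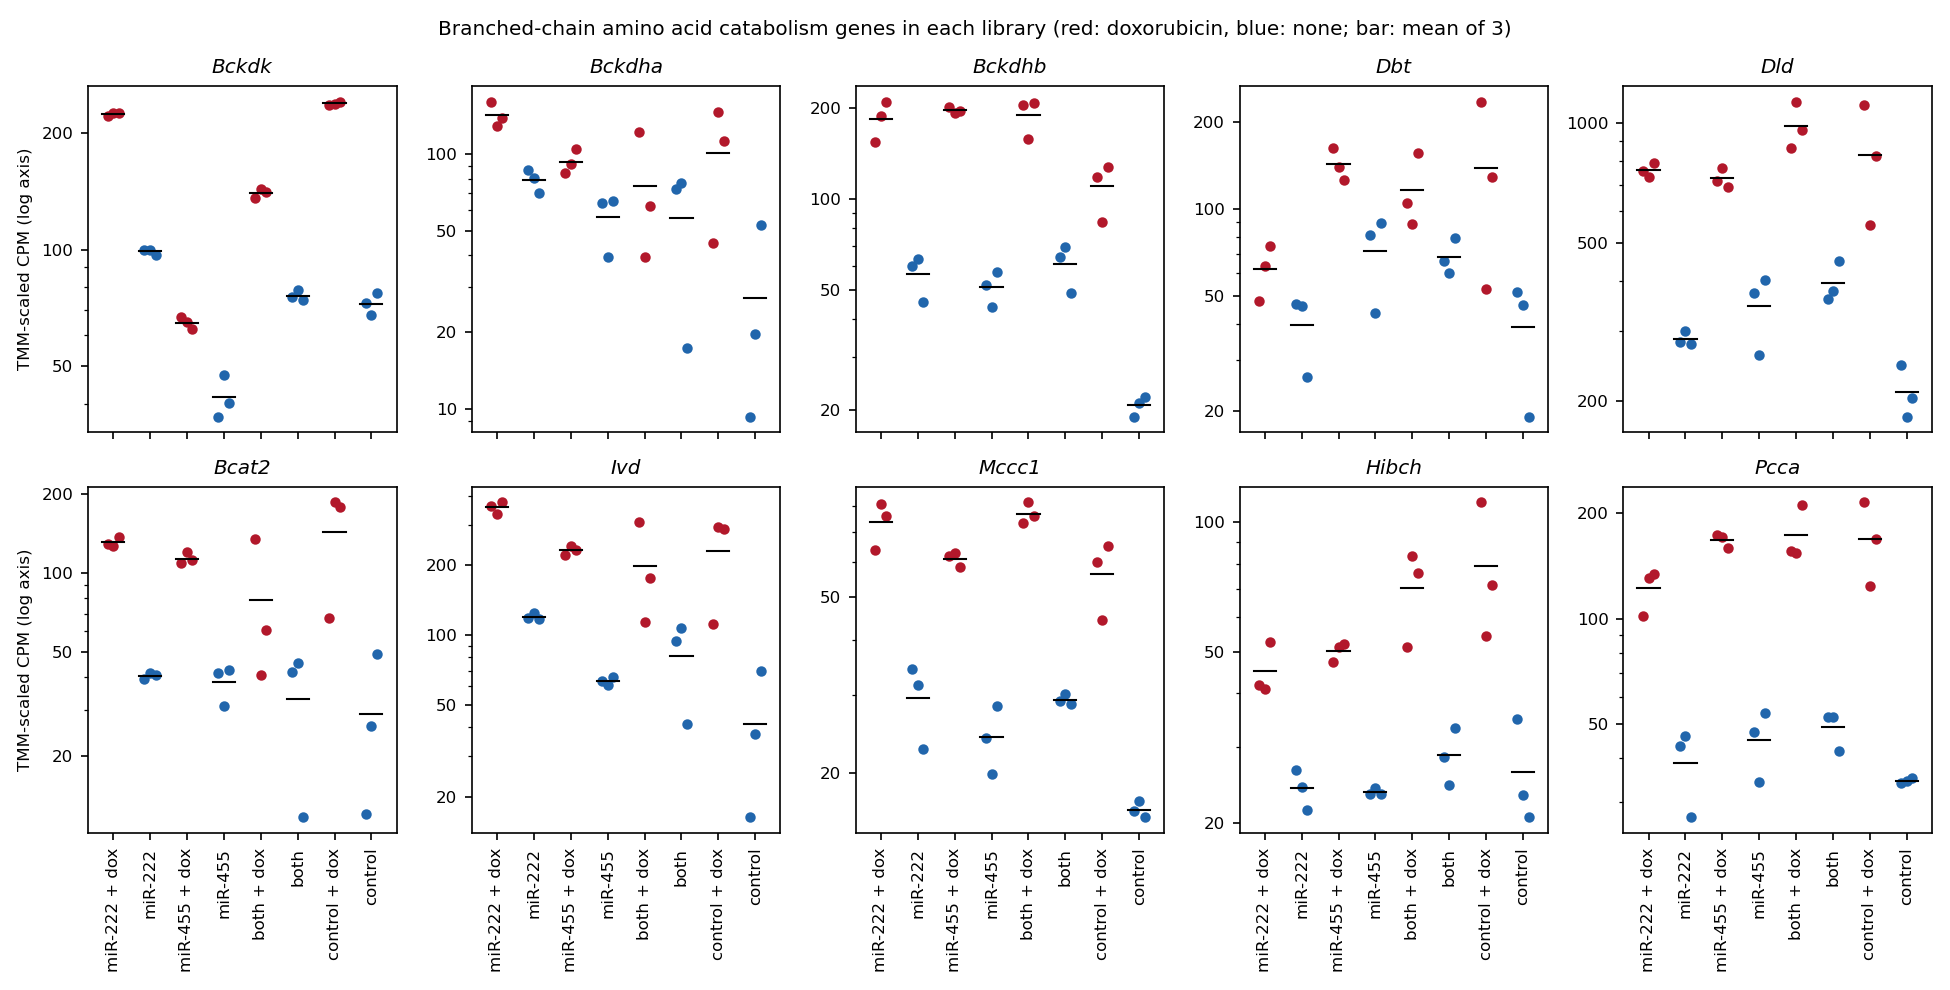
TMM-scaled CPM (log axis) of the 10 genes in each of 24 libraries, by group, red with doxorubicin and blue without; each point is a library and each bar the mean of 3. Bckdk points lie close together within each group and drop in the miR-455 groups, to 62.3 to 66.8 CPM with doxorubicin and 37.0 to 47.3 CPM without, while Bckdha, Bcat2, Ivd and Dbt spread widely within several groups.

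The fall that led to the choice of these genes is described here without a test. Without doxorubicin Bckdk averaged 41.5 ± 5.27 CPM with miR-455 and 72.5 ± 4.68 CPM with the control mimic (SD, n = 3 each), a log2 fold change of -0.81 ± 0.14 (SE). With doxorubicin it averaged 64.6 ± 2.24 CPM with miR-455 and 238 ± 2.23 CPM with the control mimic, a log2 fold change of -1.88 ± 0.14. Every miR-455 library was below every control-mimic library of the same treatment. In the presence of miR-222 the contrast was smaller in size: Bckdk averaged 75.9 ± 2.28 CPM with both mimics and 99.2 ± 2.19 CPM with miR-222 alone (-0.39 ± 0.14), and under doxorubicin 140 ± 3.94 CPM with both and 224 ± 3.23 CPM with miR-222 (-0.68 ± 0.14). The combination against the control mimic gave 0.07 ± 0.13 without doxorubicin, where the libraries overlapped, and -0.77 ± 0.14 with it, where they did not.

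No other member shared this pattern in all 4 miR-455 contrasts. Bckdhb, the E1 beta subunit, had 51.8, 43.9 and 57.2 CPM with miR-455 against 19.0, 21.1 and 22.1 CPM with the control mimic (log2 fold change 1.30 ± 0.20), and under doxorubicin 202, 193 and 196 CPM with miR-455 against 118, 84.2 and 128 CPM (0.84 ± 0.20). Its libraries did not overlap in either contrast and lay on the side opposite to those of Bckdk. When miR-455 was added to miR-222, Bckdhb differed by 0.11 ± 0.20 without doxorubicin and 0.05 ± 0.20 with it, and both values turned below 0 in fits that left out a library. Dbt, the E2 core, was higher without overlap when miR-455 was added to miR-222, by 0.78 ± 0.43 without doxorubicin and 0.92 ± 0.43 with it, and overlapped between miR-455 and the control mimic. Hibch, the valine-arm hydrolase that frees 3-hydroxyisobutyrate from CoA, was the other gene below the control mimic in every miR-455 library under doxorubicin (-0.65 ± 0.25), yet it overlapped without doxorubicin (-0.15 ± 0.25, and 0.133 with the mitochondrially encoded share as a covariate). Libraries did not overlap for 3 genes higher and 1 lower with miR-455 alone (16.2% and 12.9% of all genes) and 1 higher and 2 lower with doxorubicin (14.9% and 11.6%). Added to miR-222, the numbers were 2 higher and 2 lower without doxorubicin (7.66% and 8.07%) and 3 higher and 3 lower with it (9.4% and 11.4%). Over the 10 genes the median log2 fold change for miR-455 was 0.58 without doxorubicin, against 0.06 over all genes, and -0.06 with doxorubicin, against 0.02. Unscaled sums of cardiomyocyte markers were 50400 to 55700 CPM with miR-455 and 29400 to 32400 CPM with the control mimic. Under doxorubicin they were 27400 to 29700 CPM with miR-455 and 20700 to 28100 CPM with the control mimic. Those of smooth muscle and pericyte markers were, without doxorubicin, 2720 to 3160 CPM with miR-455 and 3390 to 4270 CPM with the control mimic. Those of endothelial markers were 38.0 to 43.4 CPM and 51.6 to 85 CPM. In the scaled fit without doxorubicin, cardiomyocyte markers had a median of 0.62, smooth muscle and pericyte markers -0.62 and endothelial markers 0.07. Fibroblast markers had -1.01 (7 of 8 negative), leukocyte markers -0.79 (4 of 5 negative) and hypoxia-induced genes 1.57 (10 of 11 positive). The mitochondrially encoded share was 5.54% to 9.83% with miR-455 and 9.11% to 20.3% with the control mimic, and under doxorubicin 13.7% to 15.4% and 8.83% to 38.2%. The part of these in the values above was not tested.

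**Figure D2:**
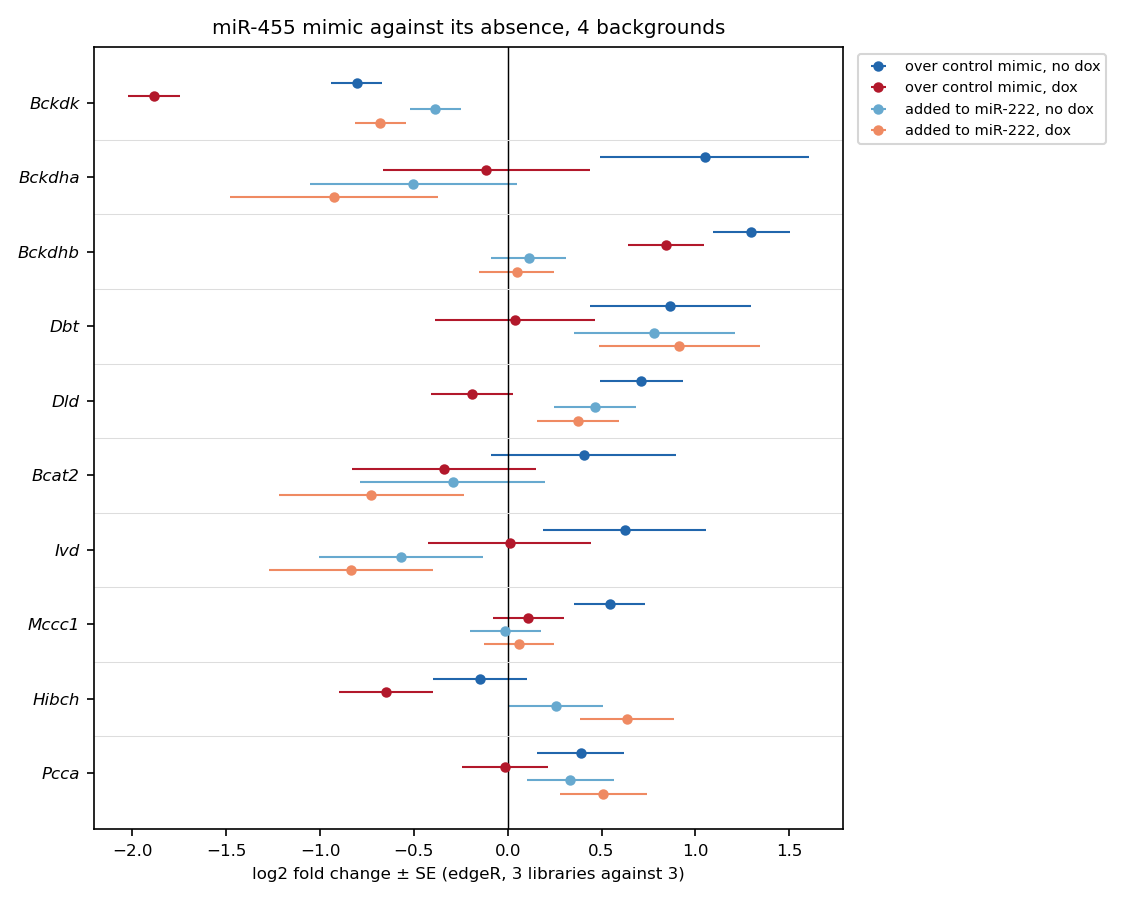
Log2 fold change ± SE (x axis) of each gene for miR-455 against its absence in 4 backgrounds, 3 libraries against 3; positive values are higher with miR-455. Bckdk lies below 0 in all 4 backgrounds, from -1.88 under doxorubicin to -0.39 when added to miR-222 alone, and Bckdhb lies at 1.30 and 0.84 over the control mimic and near 0 when added to miR-222 (0.11 and 0.05).

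Doxorubicin raised all 10 genes in cells with the control mimic. The size of this rise is that after TMM scaling, whose factors were lower with doxorubicin. The call was an adjusted p under 0.05 in edgeR's quasi-likelihood test (Benjamini-Hochberg over the 14303 genes), and in this contrast 15.2% of all genes were called higher and 12.3% lower. The 10 log2 fold changes had a median of 1.93, against 0.02 over all genes, and ranged from 1.59 for Hibch to 2.48 for Ivd. With miR-222, 8 of the 10 were higher (7.76% of all genes, with 6.87% lower), with a median of 1.36 against 0.00. With miR-455, 8 of 10 were higher (9.02% of all genes, with 9.11% lower), with a median of 1.21 against 0.00. With both mimics, 6 of 10 were higher (7.85% of all genes, with 7.24% lower), with a median of 1.29 against -0.07. None of the 10 was called lower in any of the 4 arms. The doxorubicin libraries lay above all untreated ones for 10 of the 10 genes with miR-222 (24.4% of all genes), 10 with miR-455 (27.4%), 8 with both mimics (12.2%) and 9 with the control mimic (16.3%). With those 4 libraries of fewest genes taken out the counts were 9 with miR-222, 9 with miR-455, 8 with both mimics and 10 with the control mimic. A fit of only the 6 libraries compared called none of the 10 with both mimics, where each of the 6 genes had an adjusted p between 0.0722 and 0.113 in edgeR's test.

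Marker sums of several cell types, taken without TMM scaling, differed in the same contrasts. TMM factors were lower with doxorubicin in every arm. With the control mimic they were 0.5723, 0.8472 and 0.7811 with doxorubicin and 1.114, 1.297 and 1.159 without. Gaps in these sums therefore need not hold after scaling. With the control mimic, unscaled cardiomyocyte sums were 20700 to 28100 CPM with doxorubicin and 29400 to 32400 CPM without. In the TMM-scaled fit the 9 markers had a median log2 fold change of 0.08, with 5 positive and 4 negative. Of them 2 were called higher and 1 lower. Unscaled sums of smooth muscle and pericyte markers lay apart too, at 1030 to 3010 CPM with doxorubicin and 3390 to 4270 CPM without. In the scaled fit those 6 markers had a median of -0.52, with 2 positive and 4 negative (1 called lower). Unscaled endothelial sums also lay apart, at 22.1 to 25.8 CPM and 51.6 to 85 CPM. Those 5 markers had a median of 0.45, with 4 positive and 1 negative (1 called lower). Fibroblast markers overlapped, at 13300 to 44800 CPM with doxorubicin and 21400 to 34500 CPM without. The gap in unscaled cardiomyocyte sums was widest with miR-455, at 27400 to 29700 CPM with doxorubicin and 50400 to 55700 CPM without. There 4 of 9 markers were called lower and 2 higher, with a median of -0.87 in the scaled fit. In that arm smooth muscle and pericyte markers had 1080 to 1340 CPM with doxorubicin and 2720 to 3160 CPM without, and fibroblast markers 24200 to 25900 CPM and 29600 to 31500 CPM. With miR-222 the unscaled cardiomyocyte sums were 17200 to 29100 CPM with doxorubicin and 31300 to 31700 CPM without. With both mimics they overlapped, at 20000 to 53000 CPM and 30900 to 31700 CPM. The scaled fit gave a median of 0 for these markers with miR-222 and 0.42 with both. Unscaled endothelial sums were lower with doxorubicin in every arm. Unscaled sums of leukocyte markers were higher in the 3 mimic arms (10.1 to 12.4 CPM with doxorubicin and 3.79 to 7.98 CPM without). The part of these in the rise of the 10 genes was not tested.

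Bckdk itself rose 3.29-fold with doxorubicin and the control mimic (log2 1.72 ± 0.14, edgeR adjusted p = 1.44e-07). In the mimic arms its log2 rise was 1.18 ± 0.14 with miR-222 (edgeR adjusted p = 1.79e-05), 0.64 ± 0.14 with miR-455 (0.00253) and 0.88 ± 0.14 with both mimics (0.000199). In each arm the 3 doxorubicin libraries were above the 3 without. As a description, the response with miR-455 was smaller than that with the control mimic by 1.08 ± 0.19 on the log2 scale, and the response with both mimics by 0.83 ± 0.19.

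Among the subunits of the complex that BCKDK acts on, Bckdhb had the largest response in each arm. It had 118, 84.2 and 128 CPM with doxorubicin and the control mimic against 19.0, 21.1 and 22.1 CPM without doxorubicin, a 5.30-fold rise (log2 2.41 ± 0.21, edgeR adjusted p = 2.18e-07). With a mimic its log2 rise was 1.71 ± 0.21 (miR-222), 1.95 ± 0.21 (miR-455) and 1.65 ± 0.20 (both). Dld, the E3 subunit that the pyruvate and 2-oxoglutarate dehydrogenase complexes also use, had 1110, 555 and 826 CPM with doxorubicin and the control mimic against 246, 183 and 204 CPM without, a log2 rise of 1.97 ± 0.23 (edgeR adjusted p = 3.55e-06). It rose in the mimic arms as well, by 1.41 ± 0.22 in miR-222 cells, 1.07 ± 0.22 in miR-455 cells and 1.32 ± 0.22 with both. Bckdhb and Dld had no overlap between doxorubicin and untreated libraries in any arm.

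Bckdha and Dbt were less clear. Bckdha, the E1 alpha subunit that carries the phosphorylation sites, had 44.7, 146 and 112 CPM with doxorubicin and the control mimic against 9.33, 19.6 and 52.6 CPM without. Those groups overlapped, although the gene passed the test (log2 1.89 ± 0.57, edgeR adjusted p = 0.0176). The call was lost without control mimic with doxorubicin replicate 2, without untreated control mimic replicate 1 and without untreated control mimic replicate 2 (edgeR adjusted p up to 0.0966), and in a fit of only the groups compared (0.121). Dbt had 235, 52.7 and 129 CPM with doxorubicin and the control mimic against 51.5, 46.6 and 19.1 CPM without, groups that were only just apart (log2 1.83 ± 0.44, edgeR adjusted p = 0.00401; 0.0943 in a fit of only the groups compared). Neither gene was called in a mimic arm by the fit of all groups: Bckdha had 0.85 ± 0.55 in miR-222 cells, 0.73 ± 0.55 in miR-455 cells and 0.42 ± 0.55 with both, and Dbt had 0.64 ± 0.43, 1.00 ± 0.43 and 0.77 ± 0.43 in the same order. Other fits did call them: a fit of only the groups compared called Bckdha with miR-222 (edgeR adjusted p = 0.00461) and with miR-455 (0.0332) and Dbt with miR-455 (0.0237). Without the 4 libraries with the fewest genes, edgeR called Bckdha with miR-222 (adjusted p = 0.0454) and Dbt with miR-455 (0.0498). With the share of mitochondrially encoded transcripts as a covariate Bckdha passed in all 3 mimic arms, with adjusted p = 0.0228, 0.00206 and 0.0207 by edgeR in that order; this covariate was chosen after seeing the data.

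Bcat2, the mitochondrial aminotransferase of the first step, had 67.3, 186 and 178 CPM with doxorubicin and the control mimic against 12.1, 26 and 49.0 CPM without (log2 2.31 ± 0.52, edgeR adjusted p = 0.00242). The libraries did not overlap. With miR-222 it had 129, 127 and 137 CPM with doxorubicin against 39.5, 41.4 and 40.7 CPM without (1.69 ± 0.50, edgeR adjusted p = 0.0281), and with miR-455 109, 120 and 112 CPM against 41.6, 31.1 and 42.6 CPM (1.56 ± 0.50, edgeR adjusted p = 0.0354). These groups were well apart, but both calls were lost whichever of the 6 libraries was left out (edgeR adjusted p 0.0578 to 0.0998 with miR-222, 0.0722 to 0.114 with miR-455). With both mimics Bcat2 had 135, 41.0 and 60.8 CPM with doxorubicin against 42.0, 45.5 and 11.7 CPM without, which overlapped (1.26 ± 0.50, edgeR adjusted p = 0.0966). Without replicate 2 of both mimics with doxorubicin its adjusted p was 0.0483.

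Downstream of the complex, Ivd, the isovaleryl-CoA dehydrogenase of the leucine arm, had the largest rise of the 10 with the control mimic. It had 112, 293 and 287 CPM with doxorubicin against 16.3, 37.3 and 70.1 CPM without, a 5.59-fold change (log2 2.48 ± 0.46, edgeR adjusted p = 0.000471). It rose by 1.57 ± 0.44 with miR-222 and 1.87 ± 0.45 with miR-455, and had 1.30 ± 0.44 with both mimics (edgeR adjusted p = 0.0512; 0.0247 without replicate 2 of both mimics with doxorubicin). The miR-222 call was lost in 5 of 6 fits that left out a library; it held only without replicate 2 of miR-222 with doxorubicin (edgeR adjusted p = 0.0423). Mccc1, the biotin-carrying subunit of methylcrotonyl-CoA carboxylase in the same arm, had 59.9, 44.3 and 65.2 CPM with doxorubicin and the control mimic against 16.4, 17.3 and 15.9 CPM without (log2 1.77 ± 0.19, edgeR adjusted p = 2.1e-06). It rose by 1.32 ± 0.19 in miR-222 cells, 1.34 ± 0.19 in miR-455 cells and 1.39 ± 0.19 with both.

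In the valine arm, Hibch had 111, 54.3 and 71.2 CPM with doxorubicin and the control mimic against 34.8, 23.2 and 20.6 CPM without (log2 1.59 ± 0.26, edgeR adjusted p = 0.000128). The log2 rise was 0.91 ± 0.25 for miR-222 cells, 1.09 ± 0.25 for miR-455 cells and 1.29 ± 0.25 for both. The miR-222 call was lost without replicate 3 of miR-222 with doxorubicin, and without replicate 2 or 3 of miR-222 alone (edgeR adjusted p up to 0.0889). Pcca, the biotin-carrying subunit of propionyl-CoA carboxylase on which the isoleucine and valine arms converge, had 215, 124 and 169 CPM with doxorubicin and the control mimic against 33.9, 34.5 and 35.0 CPM without, a 4.91-fold change (log2 2.30 ± 0.24, edgeR adjusted p = 1.4e-06). It rose by 1.65 ± 0.24 in miR-222 cells, 1.90 ± 0.24 in miR-455 cells and 1.83 ± 0.24 with both. Pcca and Mccc1 did not overlap between doxorubicin and untreated libraries in any arm.

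**Figure D3:**
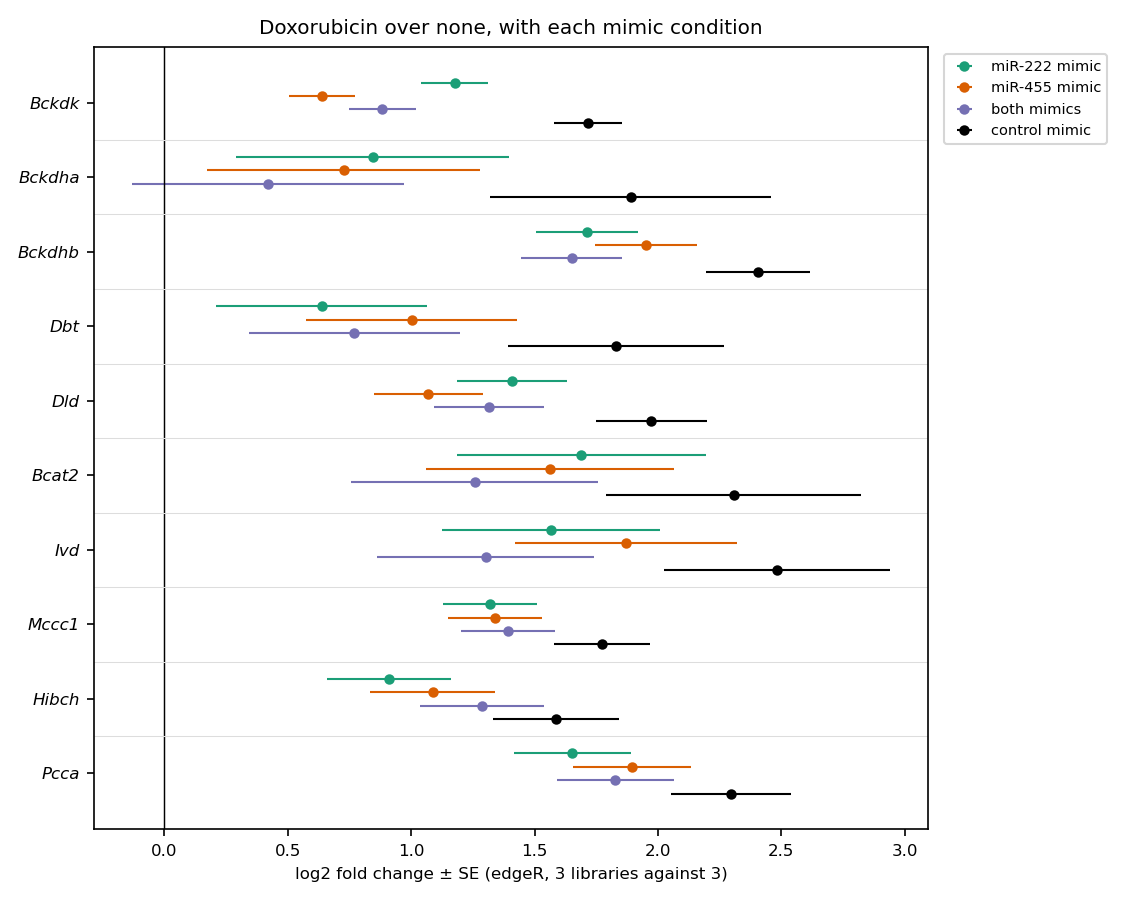
Log2 fold change ± SE (x axis) of the 10 genes for doxorubicin over none with each mimic condition, 3 libraries against 3. The control mimic has the highest value for every gene, and its 10 values run from 1.59 to 2.48; for Bckdk the values are 1.18 with miR-222, 0.64 with miR-455, 0.88 with both mimics and 1.72 with the control mimic.

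Whether miR-222 changed the doxorubicin response was tested as an interaction. All 10 differences were negative, from -0.45 for Mccc1 to -1.19 for Dbt with a median of -0.66 against -0.07 over all genes, but none was called by edgeR, and 0.0489% of all genes were. At an unadjusted p under 0.05 there were 2 of the 10, Bckdk and Bckdhb. The share of all genes at that unadjusted threshold is not given here, so this count cannot show an excess. Bckdk had -0.54 ± 0.19 (95% interval -0.91 to -0.17, edgeR adjusted p = 0.344), and DESeq2 called it with an adjusted p of 0.00726. The 10 differences share the same 12 libraries, in which mitochondrially encoded transcripts took 8.61% to 12.7% with miR-222 and doxorubicin and 8.70% to 9.34% with miR-222, against 8.83% to 38.2% with the control mimic and doxorubicin and 9.11% to 20.3% with the control mimic. With that share as a covariate, chosen after seeing the data, edgeR called 315 of all genes in this interaction, against 7 without it. The part of that share in the differences of the 10 genes was not tested.

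Without doxorubicin, miR-222 raised 4 of the 10 genes and lowered none (4.5% of all genes were called higher and 4.47% lower). The median was 0.47 against 0.06. Bckdhb had 60.1, 63.2 and 45.4 CPM with miR-222 against 19.0, 21.1 and 22.1 CPM with the control mimic (log2 1.44 ± 0.21, edgeR adjusted p = 0.000396), and its call held under every alternative run. Ivd had 118, 125 and 117 CPM with miR-222 against 16.3, 37.3 and 70.1 CPM (1.54 ± 0.44, edgeR adjusted p = 0.0357). Mccc1 had 34.4, 31.6 and 22.7 CPM with miR-222 against 16.4, 17.3 and 15.9 CPM (0.84 ± 0.19, edgeR adjusted p = 0.0105), and Bckdk 100, 100 and 96.7 CPM against 72.8, 67.7 and 77.1 CPM (0.45 ± 0.14, edgeR adjusted p = 0.041). The groups did not overlap for these 4 genes, nor for Dld (0.44 ± 0.22) and Bckdha (1.54 ± 0.56, edgeR adjusted p = 0.0868), which makes 6 of 10, against 21.4% of all genes. The calls of Ivd and Bckdk were each lost in 5 of 6 fits that left out a library (only the fit without control replicate 3 kept them) and that of Mccc1 in 3 of 6, those without miR-222 replicate 1, miR-222 replicate 2 or control replicate 1; the edgeR adjusted p reached 0.169, 0.173 and 0.0935. Dbt (0.03 ± 0.43), Bcat2 (0.48 ± 0.49), Pcca (0.17 ± 0.23) and Hibch (-0.12 ± 0.25) overlapped between the groups. In the same contrast all 11 measured hypoxia-induced genes had positive values and none was called; they summed to 3040 to 11000 CPM with miR-222 and 1620 to 6250 CPM with the control mimic. Of 8 fibroblast markers 3 were called lower, with a median of -0.86. Their unscaled sums overlapped, at 21100 to 25400 CPM with miR-222 and 21400 to 34500 CPM with the control mimic. Of 6 smooth muscle and pericyte markers 2 were called lower, with a median of -1.24 and sums that lay apart, 1360 to 2720 CPM with miR-222 and 3390 to 4270 CPM with the control mimic. Endothelial markers also lay apart, at 42.3 to 51.3 CPM and 51.6 to 85 CPM, with 1 of 5 called higher. The part of these in the result was not tested.

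Under doxorubicin, miR-222 raised 1 of the 10 genes and lowered none (1.59% of all genes were called higher and 2.36% lower). The libraries lay apart for 2 genes that were higher, Bckdhb and Ivd, and 2 that were lower, Bckdk and Hibch, against 13.8% and 12.5% of all genes. Bckdhb had 154, 189 and 210 CPM with miR-222 against 118, 84.2 and 128 CPM with the control mimic (log2 0.75 ± 0.20, edgeR adjusted p = 0.0401). The call was lost without miR-222 with doxorubicin replicate 2 or 3 and without control mimic with doxorubicin replicate 1 or 2 (edgeR adjusted p up to 0.197). Bckdk was slightly below the control mimic in all 3 libraries (-0.09 ± 0.13, edgeR adjusted p = 0.81). Hibch was also lower in all 3, at 41.8, 41.0 and 52.6 CPM against 111, 54.3 and 71.2 CPM (-0.80 ± 0.25, edgeR adjusted p = 0.0849), and DESeq2 called it lower with an adjusted p of 0.0333. Dbt had 47.9, 63.5 and 74.3 CPM with miR-222 against 235, 52.7 and 129 CPM, which overlapped (-1.17 ± 0.43, edgeR adjusted p = 0.157). Of the cardiomyocyte markers 2 of 9 were called lower and of the fibroblast markers 2 of 8; their sums overlapped, at 17200 to 29100 CPM with miR-222 and 20700 to 28100 CPM with the control mimic for cardiomyocytes and 23300 to 27900 CPM and 13300 to 44800 CPM for fibroblasts. Unscaled endothelial sums lay apart, at 16.3 to 21.6 CPM with miR-222 and 22.1 to 25.8 CPM with the control mimic. Of those 5 markers 1 was called lower, with a median of -0.45 (4 negative and 1 positive). The part of these in the values above was not tested.

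The Bckdk values for miR-222 added to miR-455 are given as a description. Bckdk had 75.5, 78.4 and 73.9 CPM with both mimics against 37.0, 47.3 and 40.2 CPM with miR-455 (log2 0.87 ± 0.14), and under doxorubicin 136, 143 and 141 CPM with both against 66.8, 64.8 and 62.3 CPM with miR-455 (1.11 ± 0.14). The groups did not overlap in either case. Of all genes, 0.315% were called higher and 0.433% lower without doxorubicin, and 1.55% higher and 0.93% lower with it. The miR-455 libraries on which these contrasts rest are those for whose low Bckdk the gene was chosen, so its values are given without a p. The other 9 genes ranged from -0.22 for Bcat2 to 0.35 for Ivd without doxorubicin and from -0.52 for Bcat2 to 0.48 for Hibch with it, and of these 9 none was called by edgeR and 0 had an unadjusted p under 0.05. Cardiomyocyte markers summed to 30900 to 31700 CPM with both mimics and 50400 to 55700 CPM with miR-455, and under doxorubicin to 20000 to 53000 CPM and 27400 to 29700 CPM; their part was not tested.

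The balance between the kinase and its antagonist was followed as the log2 ratio of Bckdk to Ppm1k counts, which compares groups and not the genes. It averaged 3.52 ± 0.58 with miR-222 and doxorubicin, 2.41 ± 0.15 with miR-455 and doxorubicin, 2.82 ± 0.64 with both and doxorubicin, and 2.77 ± 0.38 with the control mimic and doxorubicin (SD, n = 3 each). Without doxorubicin it averaged 1.94 ± 0.46 with miR-222, 0.43 ± 0.36 with miR-455, 1.62 ± 0.48 with both and 1.60 ± 0.16 with the control mimic. The miR-455 libraries (0.25, 0.84 and 0.21) lay below every other library. Bckdk was chosen for its fall with miR-455, so low ratios in miR-455 libraries follow in part from that choice and are only described. Under doxorubicin the miR-455 ratios (2.23, 2.48 and 2.50) overlapped with those of both mimics (3.14, 2.09 and 3.24). Ppm1k was lower there too, with a log2 fold change of -1.54 ± 0.36 for miR-455 over the control mimic, given as a description. Ppm1k fell with doxorubicin in miR-455 cells (-1.33 ± 0.36, edgeR adjusted p = 0.0129), a call lost in 3 of 6 fits that left out a library, with an adjusted p of up to 0.0591.

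The other genes of the pathway were taken by their place in it, and the background shares are those given above. In the leucine arm beyond Ivd and Mccc1, doxorubicin with the control mimic raised 6 of 7 genes, with a median of 1.99. Acat1, which splits acetoacetyl-CoA (2.31 ± 0.17), Auh, the methylglutaconyl-CoA hydratase (1.99 ± 0.20), Oxct1, which activates ketone bodies for use (2.74 ± 0.35), and Mccc2, the partner subunit of Mccc1 (1.85 ± 0.24), were among them. In the isoleucine and valine arms 8 of 9 rose, with a median of 2.16: Hibadh, which follows Hibch (1.98 ± 0.22), Hadh (2.42 ± 0.29), Aldh6a1 (2.20 ± 0.30) and Hadha (2.16 ± 0.30), of which Hadh and Hadha also serve fatty acid oxidation. In the propionate arm 2 of 5 rose, Mmut, the methylmalonyl-CoA mutase (2.08 ± 0.26), and Pccb, the partner of Pcca (1.99 ± 0.28).

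The steps that bring the amino acids in, sense them or regulate the pathway did not share this pattern. Of 7 genes for transport and cytosolic transamination 1 rose, the neutral amino acid transporter Slc43a2 (2.33 ± 0.58). Of 5 regulators 1 fell, the coactivator Ppargc1a (-3.31 ± 0.47), and Ppm1k had 0.58 ± 0.35. None of 7 leucine-sensing genes and none of 2 biotin genes was called by edgeR in the fit of all groups or by DESeq2. With the mitochondrially encoded share as a covariate edgeR called 2 of the leucine-sensing genes, and without untreated control mimic replicate 3 it called 1. An unadjusted p under 0.05 was found for 2 of the leucine-sensing genes and 0 of the biotin genes, without a share of all genes to set beside them.

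In the mimic arms the leucine-arm count under doxorubicin was 4 of 7 with miR-222, 5 of 7 with miR-455 and 4 of 7 with both mimics, and the isoleucine and valine count 8, 7 and 7 of 9. In fits that left out a library the isoleucine and valine count was as low as 2 with miR-222 and 4 with both, and a fit of only the groups compared called 0 of either arm with both mimics. Ppargc1a fell in each arm, by 2.41 ± 0.45 on the log2 scale with miR-222, by 2.11 ± 0.44 with miR-455 and by 2.85 ± 0.46 with both, where the fit of only the groups compared lost the call (edgeR adjusted p = 0.0988) and called 0 of the 5 regulators, against 2 in the fit of all groups. With miR-455, 4 of the 5 regulators fell: Ppargc1a, Ppara (-3.17 ± 0.83), Ppm1k and Klf15 (-2.64 ± 0.73), transcription factors except for the phosphatase and the coactivator. That count dropped to 1 in a fit that left out a library. Without doxorubicin, miR-222 raised all 7 leucine-arm genes, among them Mccc2 (1.94 ± 0.24) and Auh (0.85 ± 0.19), and lowered Bcat1, the cytosolic aminotransferase (-1.33 ± 0.38), a call lost in 5 of 6 fits that left out a library. Of the leucine-arm genes only Mccc2 kept its call in every alternative, and the count was 1 in the fit of only the groups compared and 1 to 7 when a library was left out. Mccc2 was also the 1 leucine-arm gene raised by miR-222 under doxorubicin (1.21 ± 0.24, edgeR adjusted p = 0.00454; 0.0790 in a fit of only the groups compared).

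**Figure D4:**
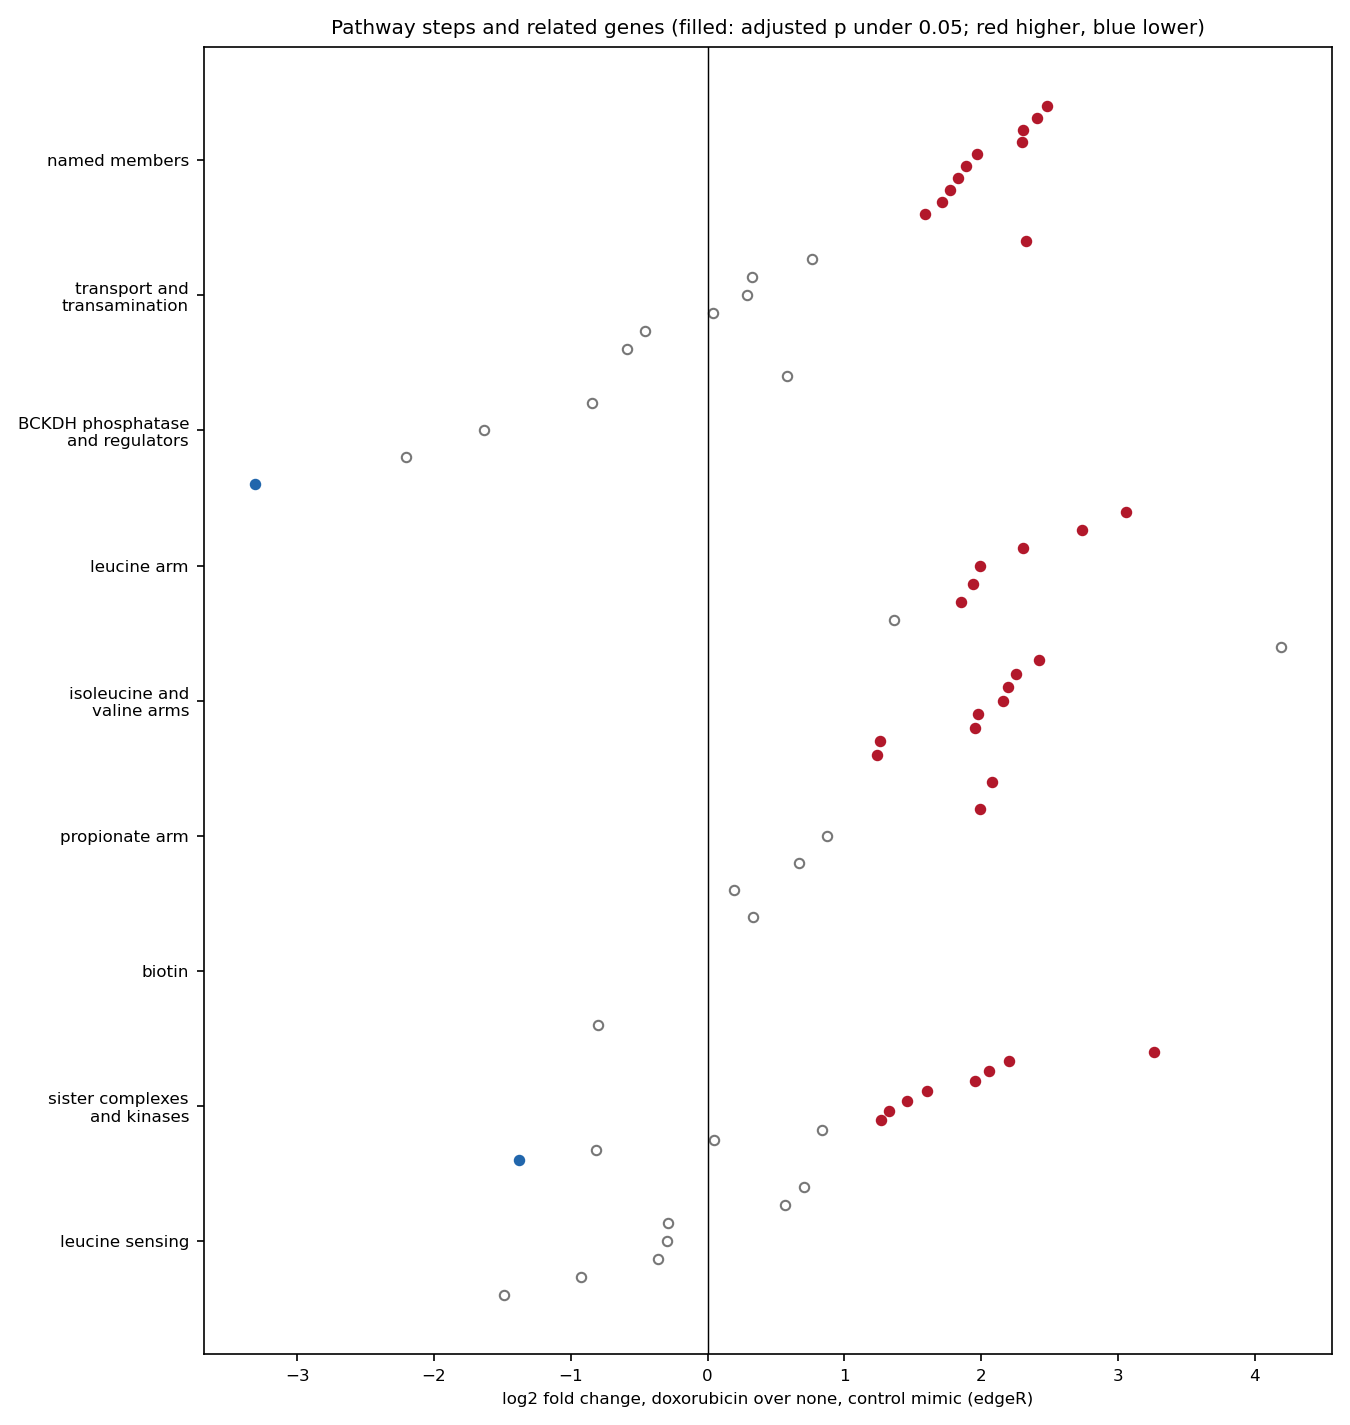
Log2 fold change (x axis) for doxorubicin over none with the control mimic, for the 10 named genes and 8 lists of related genes (rows); filled points have an adjusted p under 0.05, red higher and blue lower. The 10 named genes lie between 1.59 and 2.48, the leucine and the isoleucine and valine arms have 6 of 7 and 8 of 9 filled red points, and the leucine-sensing row has none.

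The 10 genes did not vary together within groups. The pooled SD of log2 CPM within groups was 0.08 for Bckdk, against 0.19 for Mccc1, 0.22 for Bckdhb, 0.58 for Dbt, 0.59 for Ivd, 0.68 for Bcat2 and 0.77 for Bckdha. As a description over the 24 libraries, deviations from the group mean of Bckdha, Bcat2 and Ivd went together (r = 0.98 for Bckdha and Bcat2, 0.98 for Bcat2 and Ivd, 0.96 for Bckdha and Ivd). All 3 went against the mitochondrially encoded share (r = -0.87 for Bckdha, -0.87 for Bcat2, -0.85 for Ivd). Hibch and Dld went with that share (0.83 and 0.69), Dbt had 0.63, and Bckdk had 0.01. A second set was Bckdhb, Pcca and Mccc1 (0.84 for Bckdhb and Pcca, 0.81 for Mccc1 and Pcca, 0.71 for Bckdhb and Mccc1), with r between -0.10 and 0.25 against the share. These points share library, depth and scaling. In each of the 4 libraries with the fewest genes Bcat2 was at its group's lowest value: 41.0 CPM for both mimics with doxorubicin, 67.3 CPM for the control mimic with doxorubicin, 11.7 CPM for both mimics and 12.1 CPM for the control mimic.

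**Figure D5:**
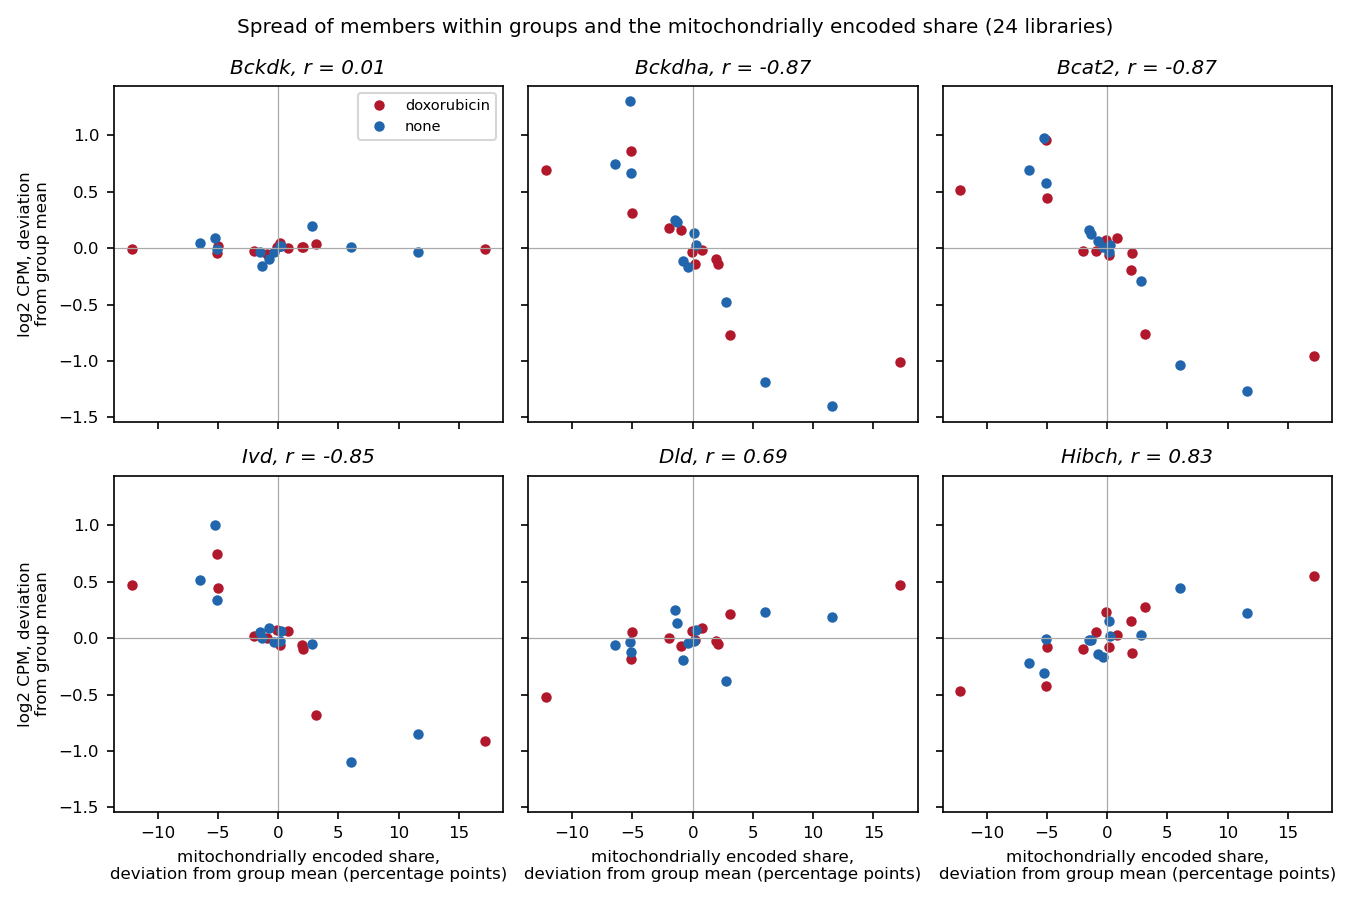
Deviation of log2 CPM from the group mean (y axis) against the deviation of the mitochondrially encoded share from the group mean in percentage points (x axis) for 6 of the genes; each point is 1 of 24 libraries, red with doxorubicin and blue without. Bckdk stays near 0 across the whole range (r = 0.01), Bckdha, Bcat2 and Ivd slope down (r = -0.87 to -0.85), and Dld and Hibch slope up (0.69 and 0.83).

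By Pearson's r of log2 CPM over the 24 libraries, the genes most like Bckdk among 10059 with a mean of at least 5 CPM were Gm2a, an activator protein of lysosomal ganglioside breakdown (r = 0.98), Pmpcb, a subunit of the mitochondrial processing peptidase (0.96), Glb1, the lysosomal beta-galactosidase (0.95), Ctsh, the lysosomal protease cathepsin H (0.94), and Slc25a3, the mitochondrial phosphate carrier (0.94). Gm2a averaged 31.7 CPM with miR-455 and doxorubicin and 133 CPM with the control mimic and doxorubicin, and without doxorubicin 20 CPM with miR-455 and 35.0 CPM with the control mimic. The most opposite were Gpd1l (-0.91), Polr3e (-0.91), Wrb (-0.90), Wdr37 (-0.89) and Traf6 (-0.88). The other 9 pathway genes were less like Bckdk, from 0.15 for Dbt to 0.65 for Hibch, and the nearest of them, Hibch, ranked 446. The likeness includes the miR-455 fall for which Bckdk was chosen, and within groups the correlation of Gm2a with Bckdk was -0.26.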

How the data were processed

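The authors deposited 1 table of expected counts per gene symbol for 24 libraries of polyadenylated RNA. The submitters' processing notes name Salmon, DESeq2 and the rat genome Rnor_6.0, without versions or roles. Of the deposited count values, 7.35% (38406) were not whole and were rounded.

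From the rounded values, edgeR 4.0.16 (under R 4.3.3) kept 14303 of 21767 genes by filterByExpr with the groups, scaled by TMM, fitted 1 mean per group over all 24 libraries and applied the quasi-likelihood F test and Benjamini-Hochberg adjustment over all tested genes (threshold 0.05). The SE is the log2 fold change divided by the square root of F. Log2 CPM for correlations used a prior count of 2, and ratios an offset of 0.5. Precision is set by 3 libraries per group. Code was tested on simulated data.

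The 10 members, the lists and the comparisons were chosen with earlier results of these data known. All members are named; each list's called genes are named by smallest p, up to 4 per comparison, beside Ppm1k, followed throughout as the antagonist of the kinase. Some genes that this rule would name are not reported here. Alternatives were DESeq2 size factors, DESeq2 1.42.0, leaving the filter out or setting it to 1 CPM in 3 libraries, only the groups compared, a replicate block, leaving out each library or the 4 with the fewest genes, and, added after seeing the data, the mitochondrially encoded share as a covariate and its removal before scaling.

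Same-numbered replicates of miR-222 and of both mimics without doxorubicin deviated together in all 3 pairs (r = 0.319 to 0.427). In both groups replicates 1 and 2 lay close (chi-square per degree of freedom 5.79 and 7.8), while replicate 3 lay apart (126 to 575). These r therefore cannot show a pairing by number. The values given for that contrast are from the fit without a block, and the block moved no value of Bckdk there.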

Additional observations from a re-analysis of the deposited data

Results flagged for a closer look

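Bckdk libraries with miR-222 lay apart from those with the control mimic on opposite sides without and with doxorubicin. Without it all 3 were higher (log2 fold change 0.45 ± 0.14), a call lost in 5 of 6 fits that left out a library. With doxorubicin all 3 were slightly lower (-0.089 ± 0.134), which was not called (edgeR adjusted p = 0.81). Of all genes, 21.4% lay apart and higher without doxorubicin, and 12.5% apart and lower with it. The difference of both values was not called by edgeR (adjusted p = 0.344), while DESeq2 called it (adjusted p = 0.00726).

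Under doxorubicin the Bckdk value for miR-222 also differed in sign with the background mimic. It was -0.089 ± 0.134 over the control mimic, which was not called, and 1.11 ± 0.14 when added to miR-455. Libraries did not overlap in either. This difference was not tested, since the miR-455 libraries are those for whose low Bckdk the gene was chosen.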

How the results depend on the processing

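Counts of the 10 genes called for doxorubicin with the control mimic stayed between 8 and 10 in every alternative. The others moved by more than 1.5 times in places, and the cause was not tested. A fit of only the groups compared, which has fewer samples, called 0 for doxorubicin with both mimics (6 in the fit of all groups), 1 for miR-222 without doxorubicin (4) and 0 for miR-222 with doxorubicin (1). For miR-222 with doxorubicin, no filter gave 0, the mitochondrial covariate 0 and DESeq2 2 (1 higher, 1 lower); DESeq2 called 1 in the interaction of miR-222 and doxorubicin, against 0 by edgeR. Leaving out 1 library gave 5 to 7 for doxorubicin with miR-222, against 8 from all libraries, 1 to 5 for miR-222 without doxorubicin and 0 to 2 for miR-222 with doxorubicin.

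No pairing of samples by replicate number was shown. Of 84 same-numbered pairs 16 had r over 0.1. Each sample was also compared with the 3 samples of another group. In 46 of these 168 comparisons the best match bore its own number. With the replicate block, 2 genes were called for miR-222 without doxorubicin and 0 for miR-222 with doxorubicin; the block kept the other counts within 1.5 times. Over all genes, the count for doxorubicin was 2093 with miR-222 and ran from 1805 to 4906 over the alternatives with all replicates or without the 4 libraries, 2593 and 2272 to 5545 with miR-455, 2158 and 5 to 4757 with both mimics, and 3936 and 1437 to 6189 with the control mimic. For miR-222 it was 1283 and 485 to 2832 without doxorubicin, 565 and 76 to 1211 with it, 107 and 0 to 514 added to miR-455, 355 and 94 to 1002 added under doxorubicin, and 7 and 0 to 315 in the interaction.

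The Bckdk value for both mimics against the control mimic with doxorubicin, -0.77, was -0.73 with the 1 CPM filter, -0.72 in the fit of only the groups compared and -0.73 without mitochondrially encoded transcripts, and that for miR-455 added to miR-222 with doxorubicin was -0.64 there. Without doxorubicin the value for both mimics ran from -0.011 to 0.088 with a library left out.

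Reversed values were of genes not called or of contrasts given without a test. Hibch had 0.133 for miR-455 without doxorubicin with the covariate. For miR-455 added to miR-222, Bckdhb lay below 0 without miR-222 replicate 3 and, under doxorubicin, without miR-222 replicate 1 and without replicate 1 or 3 of both mimics. For miR-222 without doxorubicin, Dbt had -0.018 with the 1 CPM filter and -0.004 in the fit of only the groups compared, and Hibch 0.10 without the 4 libraries and 0.085 with the covariate. With doxorubicin, Dld had 0.14 without the 4 libraries and 0.17 with the covariate, Bckdha -0.37 and Ivd -0.014 with the covariate. With a library left out, Dbt ran from -0.32 to 0.24, Hibch from -0.29 to 0.10 and Pcca from -0.002 to 0.357 for miR-222 without doxorubicin, Dld from -0.34 to 0.14 and Bcat2 from -0.47 to 0.10 with doxorubicin, and Bckdha from -0.13 to 0.73 for doxorubicin with both mimics. The lowest count of these genes was 219, and precision rests on 3 libraries per group.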

Other observations

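The sister complexes that share Dld with the branched-chain complex, and their kinases, moved with it in part. Doxorubicin with the control mimic raised 8 of 12 measured genes and lowered 1, Pdp1 (-1.38 ± 0.39). Among those that rose were Pdhb (2.05 ± 0.15) and Dlat (1.95 ± 0.18), subunits of pyruvate dehydrogenase, Dlst, the core of the 2-oxoglutarate complex (1.46 ± 0.23), and Gcsh of the glycine cleavage system (1.33 ± 0.22). In a fit of only the groups compared 5 of the 12 were called. The pyruvate dehydrogenase kinase Pdk4 was raised by miR-222 without doxorubicin (2.80 ± 0.76, edgeR adjusted p = 0.0266, lost in 5 of 6 fits that left out a library), and fell with doxorubicin in miR-455 cells (-4.28 ± 0.82, edgeR adjusted p = 0.00117). Pdk2 was raised when miR-222 was added to miR-455 under doxorubicin (2.48 ± 0.39, edgeR adjusted p = 0.00175; 0.0639 in a fit of only the groups compared).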
